A study of Mus musculus with 12 samples.

Results

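The genes described are 10 of the 26190 genes in the deposited expression table, chosen by name: the keratins Krt7, Krt8, Krt18 and Krt19, the adhesion molecules Epcam and Cdh1, and the claudins Cldn3, Cldn4, Cldn6 and Cldn7. The study grew heart organoids (HOs) from mouse embryonic stem cells (ESCs) and compared them with the mouse embryonic heart. RNA was sequenced from 4 groups of 3 libraries each, namely atria and ventricles of E11.5 embryonic hearts (E11.5H) and the atrium-like and ventricle-like parts that were cut out by hand from HOs on culture day 13. All 4 groups are labelled C57BL/6, although the methods also name ESC lines from an F1 hybrid of C57BL/6 and JF1 and do not say which line gave which library. The HOs were grown as aggregates of ESCs on a gel of laminin and entactin (LN/ET) in medium with FGF4, to which BMP4, the GSK3 inhibitor BIO and LIF were added in the last days, whereas the E11.5H had no culture step. The methods call the 3 HO replicates biological ones. They describe these HOs as cut into both an atrium-like and a ventricle-like part. By that account both kinds of part came from the same HOs, and the 6 HO libraries are not 6 independent cultures. No label ties a part to a given HO. Each value below is a level in FPKM, which is the number of fragments of a gene scaled to its transcript length and to the size of the library, unless it is named as a log2 difference.

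Simple epithelia are single sheets of cells held together by a belt of junctions near the free surface. Their intermediate filaments are built from pairs of a type II and a type I keratin, chiefly Krt8 with Krt18 and, in many ducts and linings, Krt7 with Krt19. Cdh1 (E-cadherin) joins neighbouring cells at adherens junctions, Epcam is a surface glycoprotein of most simple epithelia that binds claudin-7, and claudins form the strands of tight junctions. In the embryonic heart the muscle layer carries N-cadherin (Cdh2), while the mesothelial cells that cover the heart are known to make simple keratins.

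Promoter sequences are shown for those windows of the members that held no annotated exon. RefSeq windows of build GRCm38.p6 matched 8 of the 10 members in 9 entries (Cldn7 has 2 starts), and Cdh1 and Krt19 had no entry. Only the 250 bases before each start were used. They were searched on both strands for CACCTG (reverse complement CAGGTG), the E-box bound by the repressors Snai1, Zeb1 and Zeb2, and for CCGGTT (reverse complement AACCGG), the core of the site bound by Grhl factors. The E-box occurred in 7 of the 9 windows (Krt7, Krt8, Krt18, Epcam, Cldn4, Cldn6 and 1 of the 2 of Cldn7), and in 17.2% of all 32851 windows of this length. CCGGTT occurred in 1 member, in the second window of Cldn7, directly before an E-box and without overlapping it, and in 5.62% of all windows. G and C made 51.2% to 66.0% of the bases in the 9 windows, against a median of 52.4% over all windows. The shares were not adjusted for this, and no enrichment was tested. The 4 windows free of GENCODE exons read as follows, 5′ to 3′ with the E-box letters in capitals; a match of letters is no evidence that a factor bound there.
Epcam (chr17:87635729-87635978, plus strand): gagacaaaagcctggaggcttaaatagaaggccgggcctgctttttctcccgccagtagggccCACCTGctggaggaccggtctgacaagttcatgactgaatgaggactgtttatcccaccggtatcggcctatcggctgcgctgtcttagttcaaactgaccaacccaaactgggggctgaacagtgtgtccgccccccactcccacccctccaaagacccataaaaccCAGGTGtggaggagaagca
Cldn4 (chr5:134946935-134947184, minus strand): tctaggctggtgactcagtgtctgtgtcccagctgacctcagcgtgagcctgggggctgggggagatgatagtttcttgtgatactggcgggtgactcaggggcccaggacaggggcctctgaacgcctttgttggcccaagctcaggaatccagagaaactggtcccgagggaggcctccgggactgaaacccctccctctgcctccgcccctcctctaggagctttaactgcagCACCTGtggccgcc
Cldn3 (chr5:134985964-134986213, plus strand): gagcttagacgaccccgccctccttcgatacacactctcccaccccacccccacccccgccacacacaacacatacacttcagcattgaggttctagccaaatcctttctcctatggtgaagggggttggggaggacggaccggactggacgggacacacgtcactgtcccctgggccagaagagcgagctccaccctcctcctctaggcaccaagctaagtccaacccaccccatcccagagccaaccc
Cldn7, first start (chr11:69964529-69964778, plus strand): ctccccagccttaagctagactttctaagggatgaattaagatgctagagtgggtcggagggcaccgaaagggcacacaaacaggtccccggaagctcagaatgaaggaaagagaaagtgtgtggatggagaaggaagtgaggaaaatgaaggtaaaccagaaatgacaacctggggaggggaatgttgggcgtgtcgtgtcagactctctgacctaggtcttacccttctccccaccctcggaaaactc
The Epcam window held the E-box at 187 to 182 and at 19 to 14 bases before the start, and the Cldn4 window held it at 14 to 9 bases before the start. The windows of Cldn3 and of the first Cldn7 start held neither motif.

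The libraries held 23971258 to 30540993 fragments assigned to genes. The 10 members together took 0.0171% to 0.0203% of them in the 6 E11.5H libraries, 0.831%, 0.236% and 0.821% in HO atrium-like parts 1, 2 and 3, and 0.218%, 0.128% and 0.58% in HO ventricle-like parts 1, 2 and 3. The labelled tissue was checked against 16 genes of heart muscle: their summed level was 16773 to 19508 FPKM in E11.5H, 308, 1199 and 988 FPKM in the atrium-like and 2779, 1871 and 4518 FPKM in the ventricle-like parts, and none of the 16 was at 0 in any group. In bulk RNA, fewer cells of a type and less RNA per cell cannot be told apart, and this holds for every level below.

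Krt8 was the most abundant member in the HOs together with its partner Krt18. Krt8 (chr15:101996711-102004342, minus strand), the type II keratin of nearly every simple epithelium, had 24.1, 22.98 and 18.3 FPKM in E11.5H atria and 26.2, 24.2 and 17.9 FPKM in E11.5H ventricles. It had 1035, 428 and 1220.0 FPKM in HO atrium-like and 313, 332 and 783 FPKM in HO ventricle-like parts. All 6 HO libraries were above all 6 embryonic libraries, and the lowest HO library was 11.9 times the highest embryonic one. The log2 difference was 5.57 (SE 0.52, edgeR adjusted p = 0.00211) in the atrial and 4.30 (SE 0.44, edgeR adjusted p = 0.00243) in the ventricular comparison, so Krt8 rose in both. A lincRNA, Gm36026, overlaps Krt8 on the other strand and a Krt8 pseudogene is annotated. The use of strand in counting is not given in the sources used here, so reads of these loci cannot be separated from Krt8.

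Krt7 (chr15:101412403-101427806, plus strand), the type II keratin of ducts and other glandular linings, behaved differently. It had 19.3, 22.7 and 28.3 FPKM in E11.5H atria and 15.04, 15.997 and 18.2 FPKM in E11.5H ventricles, a level close to that of Krt8 in the same hearts. In the HOs it had 131, 14.4 and 146 FPKM in atrium-like and 105, 32.1 and 205 FPKM in ventricle-like parts. Atrium-like part 2 was below every atrium of E11.5H, so those groups overlapped, whereas all ventricle-like parts were above all ventricles. The log2 difference was 2.30 (SE 0.82, edgeR adjusted p = 0.0763) for the atrial comparison, which did not pass, and 2.71 (SE 0.64, edgeR adjusted p = 0.0257) for the ventricular one, which did. Without atrium-like part 2 the atrial log2 difference was 2.81 (edgeR adjusted p = 0.000449), and without ventricle-like part 1 or any single E11.5H ventricle library the ventricular one lost its call (adjusted p between 0.0618 and 0.106).

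Among the type I keratins, Krt18 (chr15:102028216-102032026, plus strand), the filament partner of Krt8, had 32.9, 31.1 and 30.3 FPKM in E11.5H atria and 26.3, 27.2 and 19.5 FPKM in E11.5H ventricles. It had 996, 330.0 and 1277 FPKM in atrium-like and 255, 234 and 839 FPKM in ventricle-like parts of HOs. The HO libraries were again all above the embryonic ones. The log2 difference was 5.01 (SE 0.59, edgeR adjusted p = 0.00361) in the atrial and 4.10 (SE 0.58, edgeR adjusted p = 0.00592) in the ventricular comparison. The Krt8 and Krt18 genes lie 23.9 kb apart on chromosome 15 and point away from each other.

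Krt19 (chr11:100140811-100145926, minus strand), the smallest keratin and a partner of Krt7 and Krt8, had 33.6, 25.8 and 24.2 FPKM in E11.5H atria and 46.7, 43.2 and 42.6 FPKM in E11.5H ventricles. It had 488, 145 and 349 FPKM in atrium-like and 277, 54.4 and 408 FPKM in ventricle-like parts of HOs. Ventricle-like part 2 came nearest to the hearts, at 1.17 times the highest embryonic library, and no HO library overlapped them. The log2 difference was 3.79 (SE 0.55, edgeR adjusted p = 0.00577) in the atrial and 2.40 (SE 0.68, edgeR adjusted p = 0.0421) in the ventricular comparison. The ventricular call of Krt19 was lost when any 1 library other than ventricle-like part 2 was left out (adjusted p between 0.0696 and 0.144).

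**Figure D1:**
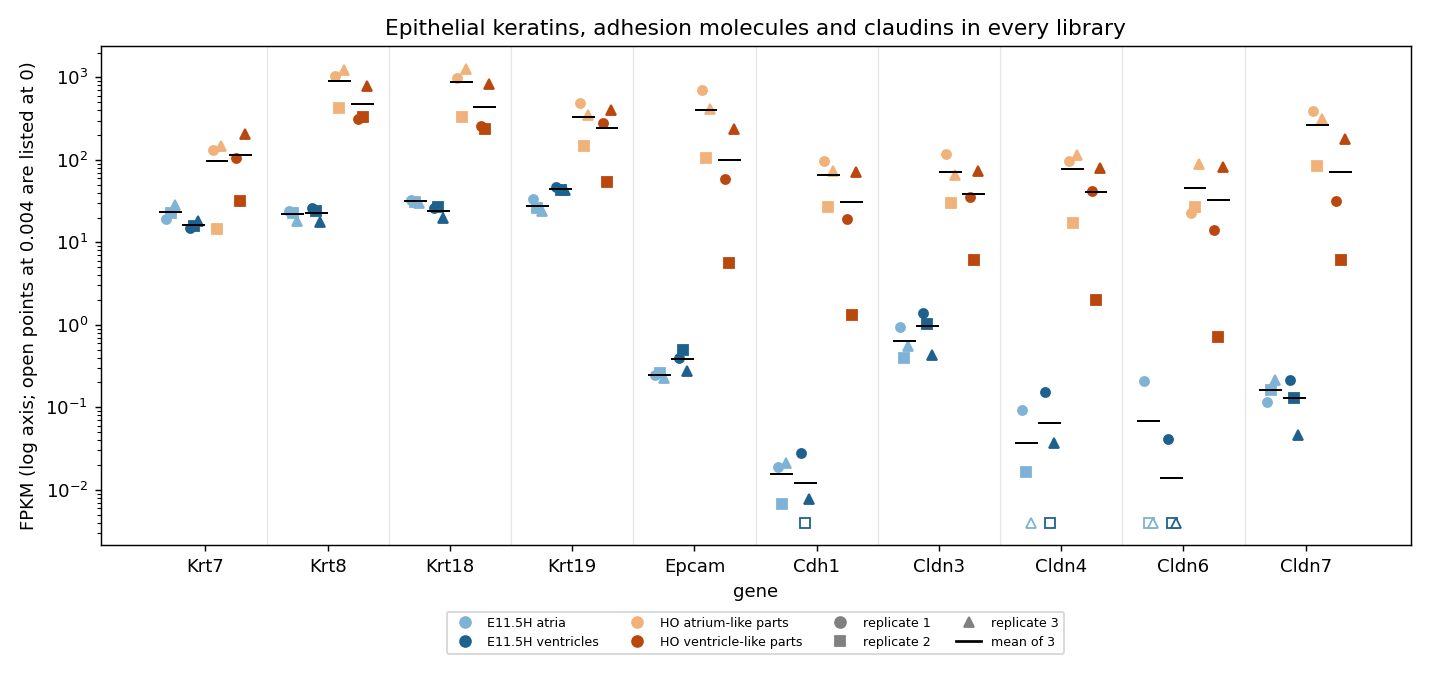
Levels of the 10 genes in FPKM (log axis) in 12 libraries, with 1 point per library, replicates by symbol, groups by colour and bars at the mean of 3. The 4 keratins lie between 15.0 and 46.7 FPKM in every embryonic library, while Epcam, Cdh1 and the claudins lie at or below 1.41 FPKM there, and replicate 2 of the ventricle-like parts is the lowest HO library for 8 of the 10 genes.

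Epcam and Cdh1 separated the HOs from the hearts more widely than the keratins did. Epcam (chr17:87635979-87651127, plus strand) had 0.247, 0.259 and 0.224 FPKM in E11.5H atria and 0.393, 0.496 and 0.279 FPKM in E11.5H ventricles, from 15 to 33 fragments per library. It had 701, 107 and 409 FPKM in atrium-like and 58.4, 5.67 and 235 FPKM in ventricle-like parts of HOs. All HO libraries were above all embryonic ones, but among themselves they spread 124-fold, or 11.99-fold without ventricle-like part 2. The log2 difference was 10.95 (SE 1.02, edgeR adjusted p = 0.00204) in the atrial and 7.91 (SE 1.501, edgeR adjusted p = 0.0137) in the ventricular comparison.

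Cdh1 (chr8:106603350-106670247, plus strand) was near 0 in the hearts, with 3, 1 and 3 fragments in E11.5H atria and 4, 0 and 1 fragments in E11.5H ventricles, at most 0.0281 FPKM. In the HOs it had 97.3, 26.5 and 74.003 FPKM in atrium-like and 19.1, 1.32 and 71.8 FPKM in ventricle-like parts. The HO libraries were all higher, the lowest of them by 46.9-fold over the highest embryonic one. Scaled to library size, the pooled atrium-like parts had 4208 times the level of the pooled atria (95% counting interval 2042 to 10465, 7 fragments in the atria), and the ventricle-like parts 2616 times that of the ventricles (1121 to 8057, 5 fragments). These intervals cover counting error in the few embryonic fragments only.

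Cdh2 (N-cadherin), the cadherin of heart muscle, had 38.8, 46.2 and 37.4 FPKM in E11.5H atria and 55.2, 63.3 and 55.8 FPKM in E11.5H ventricles. It had 1.101, 19.8 and 9.15 FPKM in atrium-like and 32.1, 23.4 and 16.7 FPKM in ventricle-like parts, and it fell in the ventricular comparison (log2 difference -1.36, SE 0.25, edgeR adjusted p = 0.01197) but did not pass in the atrial one (-1.95, SE 0.81, adjusted p = 0.113). The ratio of Cdh1 to Cdh2 within a library was 88.4, 1.34 and 8.09 in the atrium-like and 0.593, 0.0563 and 4.31 in the ventricle-like parts, and at most 0.000557 in E11.5H. Cdh1 thus exceeded Cdh2 in 4 of the 6 HO libraries and in no heart library.

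The claudins were also nearly absent from the hearts, except for Cldn3. Cldn3 (chr5:134986214-134987476, plus strand), a sealing claudin of many simple epithelia, had 0.936, 0.3995 and 0.561 FPKM in E11.5H atria and 1.41, 1.03 and 0.429 FPKM in E11.5H ventricles. It had 119, 30.1 and 65.02 FPKM in atrium-like and 35.4, 6.08 and 73.9 FPKM in ventricle-like parts of HOs. No HO library overlapped the hearts, and the log2 difference was 7.05 (SE 0.78, edgeR adjusted p = 0.00312) in the atrial and 5.25 (SE 1.02, edgeR adjusted p = 0.0146) in the ventricular comparison. The antisense gene Wbscr25 overlaps Cldn3, so its reads could not be told apart from those of Cldn3.

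Cldn4 (chr5:134945124-134946934, minus strand), a neighbour of Cldn3 at a distance of 39.3 kb and a claudin that limits sodium passage in tight epithelia, had 6, 1 and 0 fragments in E11.5H atria and 9, 0 and 2 fragments in E11.5H ventricles. In the HOs it had 97.7, 17.1 and 116 FPKM in atrium-like and 41.7, 1.99 and 79.4 FPKM in ventricle-like parts. Every HO library was above every heart library. Pooled and scaled to library size, the level was 2019.6 times that of the atria (95% counting interval 980.2 to 5023, 7 fragments in the atria) and 649.6 times that of the ventricles (363 to 1301, 11 fragments). These intervals cover counting error in the pooled embryonic fragments only, not the spread between libraries.

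Cldn6 (chr17:23679365-23682446, plus strand), a claudin of embryonic epithelia that is scarce in adult tissues, was listed at 0 in 4 of the 6 heart libraries. All 11 atrial fragments came from E11.5H atria 1 and both ventricular fragments from E11.5H ventricles 1. In the HOs it had 22.8, 26.8 and 89.1 FPKM in atrium-like and 13.95, 0.711 and 82.1 FPKM in ventricle-like parts, so ventricle-like part 2, with 35 fragments, was the only HO library below 1 FPKM. The pooled ratio was 666 (372 to 1334) against the atria and 2331 (645 to 19244) against the ventricles, where the upper bound rests on 2 fragments. The intervals cover counting error in the pooled embryonic fragments only. They include neither the uneven split of these fragments over the hearts nor the spread of the HO libraries.

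Cldn7 (chr11:69964779-69967886, plus strand), the claudin bound by Epcam, had 0.117, 0.163 and 0.212 FPKM in E11.5H atria and 0.215, 0.128 and 0.0466 FPKM in E11.5H ventricles. In the HOs it was the most abundant claudin member of the atrium-like parts, with 390.0, 84.6 and 311 FPKM, and had 32.1, 6.17 and 178 FPKM in ventricle-like parts. The lowest HO library was 28.8 times the highest heart library, and the pooled ratio was 1596 (1072 to 2490.3) for the atrial and 558 (353 to 942) for the ventricular comparison. Here too the intervals cover counting error in the embryonic fragments only, not the spread between libraries.

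**Figure D2:**
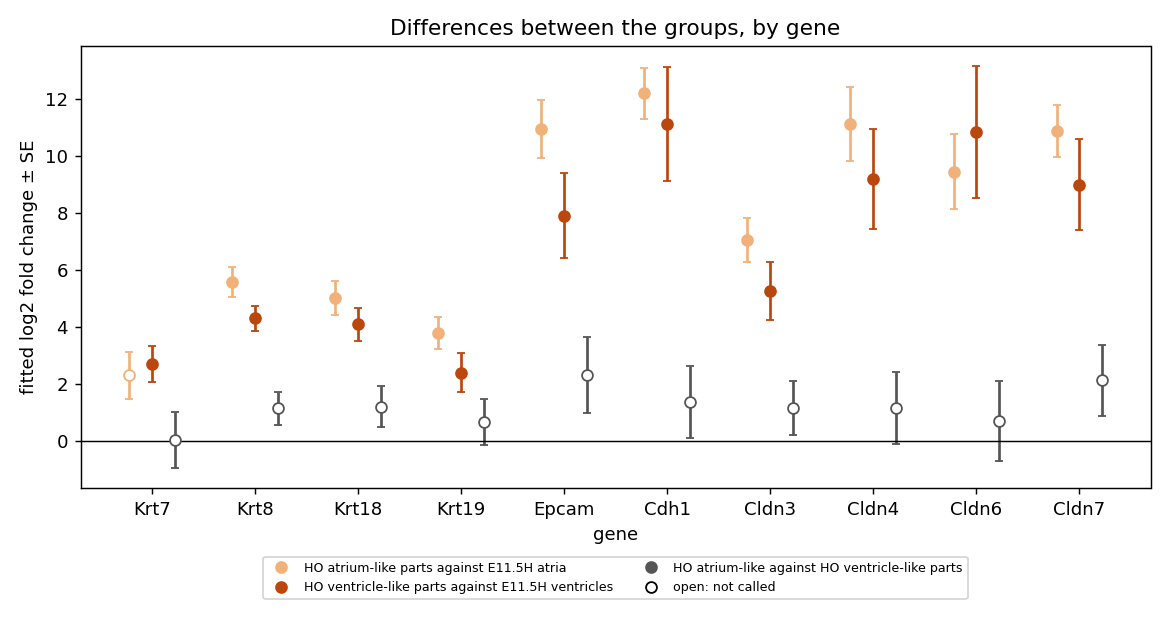
Fitted log2 fold change of each gene with its standard error in 3 comparisons, from edgeR over 3 libraries a group, with filled points for calls and open points for genes not called. The keratins lie between 2.30 and 5.57 and the other members between 5.25 and 12.21 in the comparisons of HO parts with hearts, while the 10 differences between the HO parts lie between 0.03 and 2.30 and none is called; the fitted values of Cdh1, Cldn4, Cldn6 and Cldn7 against hearts rest on few embryonic fragments.

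A gene was called at an edgeR adjusted p under 0.05 and a log2 fold change over 1 in size. Cdh1, Cldn4, Cldn6 and Cldn7 passed the filter on low counts only through the HO libraries, where they are high, so they had to differ, and their calls support nothing. In the atrial comparison 9 of the 10 members were called higher (all but Krt7), against 16.0% higher and 8.81% lower among the 15418 genes tested (24.8% in either direction). Of the 6 members that also passed the filter in the hearts, 5 were called higher, and the same 5 had no overlap between the groups, against 24.1% of genes. In the ventricular comparison all 10 were called higher, against 11.6% higher and 7.35% lower among 15094 genes (18.9% in either direction). All 6 that passed in the hearts were called there and had no overlap, against 29.6%. When any 1 of the 3 E11.5H ventricle libraries was left out, only Krt8 and Krt18 were still called in the ventricular comparison (2 of 10, each time), where 3.50% to 3.88% of all genes were called higher, and the other 8 had adjusted p between 0.0589 and 0.144 with log2 differences of the same sign.

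Both kinds of HO part were then compared with each other, the question being whether the members marked one part. Of the 10 members 0 were called by edgeR, 0 had an unadjusted p under 0.05, and DESeq2 called 0, where 0% of all 15703 genes were called by edgeR. The mean FPKM was higher in atrium-like parts for 9 of the 10 (all but Krt7), and the fitted log2 differences ran from 0.03 (SE 0.9965) for Krt7 to 2.30 (SE 1.34) for Epcam, with edgeR adjusted p of at least 0.7501. Epcam averaged 405 ± 297 FPKM (SD, n = 3) in atrium-like and 99.8 ± 120.2 FPKM (SD, n = 3) in ventricle-like parts, and Krt8 averaged 894 ± 414 and 476 ± 266 FPKM (SD, n = 3 each). The parts overlapped for all 10 members, where 13.3% of all genes had no overlap in either direction, so differences of the size seen for Epcam and Cldn7 were within the spread between these libraries. When libraries were scaled to equal heart muscle genes instead, which moved the median of all genes by 1.55, 7 of the 10 were called higher in atrium-like parts, where 8.95% of all genes were.

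Between the embryonic chambers 6 of the 10 members could be tested, since Cdh1, Cldn4, Cldn6 and Cldn7 had too few fragments, and 0 were called, against 4.90% of 14536 genes. Among all genes 21.3% had no overlap with atria higher and 11.8% with atria lower, and of the 6 members 2 (Krt7 and Krt18) and 2 (Krt19 and Epcam) did. Krt19 was lower in atria (27.9 ± 5.06 FPKM) than in ventricles (44.1 ± 2.196 FPKM; SD, n = 3 each), with no overlap and a log2 difference of -0.73 (SE 0.13, edgeR adjusted p = 0.00412), which is under the fold limit. Krt7 averaged 23.4 ± 4.55 FPKM (SD, n = 3) in atria against 16.4 ± 1.62 FPKM (SD, n = 3) in ventricles, also without overlap, but its log2 difference of 0.44 (SE 0.15) did not pass (edgeR adjusted p = 0.09201). The keratins of the hearts so took different shares of their sum: Krt19 made 40.8, 39.04 and 43.4% of the summed FPKM of the 4 keratins in ventricles and 30.6, 25.1 and 23.9% in atria. Scaling to heart muscle genes moved the median of all genes by 0.62 here, brought Krt7 to a called log2 difference of 1.07 (13.6% of all genes were called higher in atria at that setting) and turned Krt8 from -0.13 to 0.48. The interaction, which asks whether the step from heart to HO differed between the chambers, called 0 of the 10 members (edgeR, all 12 libraries), 0 at an unadjusted p under 0.05 and 0 with DESeq2, against 0.152% of 16494 genes.

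Among the 6 HO libraries most members shared their lowest library, but they varied to different extents. Atrium-like part 1 was the highest library for 5 members, atrium-like part 3 for 4 and ventricle-like part 3 for 1 (Krt7). Ventricle-like part 2 was the lowest for 8 members, the exceptions being Krt8, lowest in ventricle-like part 1, and Krt7, lowest in atrium-like part 2. From the highest to the lowest HO library the level fell 3.896-fold for Krt8, 5.45-fold for Krt18, 8.97-fold for Krt19, 14.2-fold for Krt7, 19.5-fold for Cldn3, 58.3-fold for Cldn4, 63.2-fold for Cldn7, 73.8-fold for Cdh1, 124-fold for Epcam and 125-fold for Cldn6. The wide spread of the junction genes rested on ventricle-like part 2. Without it, a choice made after seeing the data as are all values below without this library or without Gata6, the spread was 11.99-fold for Epcam, 12.2-fold for Cldn7, 6.81-fold for Cldn4, 6.39-fold for Cldn6, 5.11-fold for Cdh1 and 3.94-fold for Cldn3, while Krt7, at 14.2-fold, then varied most of the 10. With 6 libraries that may share HOs, these patterns are given as descriptions and no correlation was computed.

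**Figure D3:**
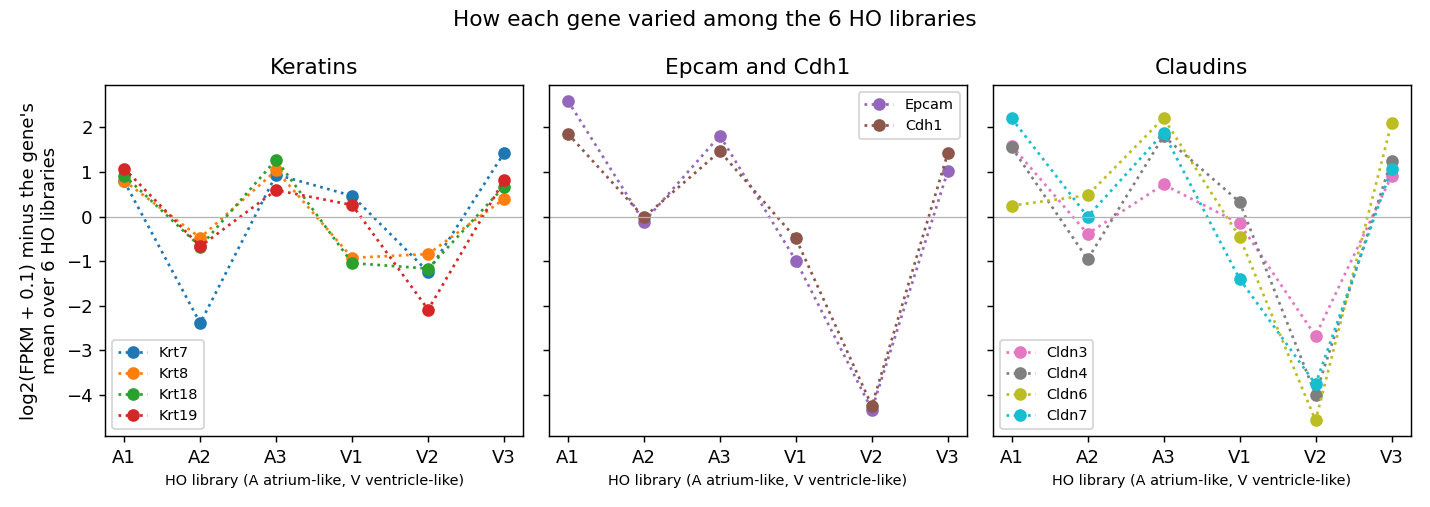
Level of each gene in the 6 HO libraries as log2(FPKM + 0.1) minus its own mean, for keratins, adhesion molecules and claudins; dotted lines only join the points of a gene, as the libraries have no order. Ventricle-like part 2 (V2) lies more than 2 below the mean for Krt19, Epcam, Cdh1 and all 4 claudins, but nearer to the mean for Krt7, Krt8 and Krt18.

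Ratios within a library, which do not depend on how libraries are scaled, showed which genes kept step. The ratio of Krt8 to Krt18 was 0.733, 0.739 and 0.604 in E11.5H atria, 0.997, 0.891 and 0.919 in E11.5H ventricles, 1.04, 1.298 and 0.955 in atrium-like and 1.23, 1.42 and 0.933 in ventricle-like parts. This filament pair had the steadiest ratio of all 45 pairs of members in the HOs, with an SD of 0.249 on the log2 scale, where Krt8 itself had an SD of 0.855 and Krt18 of 1.08. The pair Epcam and Cldn7, whose proteins bind each other, came next with an SD of 0.366, although Epcam alone had an SD of 2.48 and Cldn7 of 2.26. The ratio of Cldn7 to Epcam was 0.557, 0.792 and 0.762 in atrium-like and 0.549, 1.09 and 0.756 in ventricle-like parts. In 24 of the 45 pairs the ratio varied less than either member alone. Without ventricle-like part 2 this held for 27 pairs, and Krt8 with Krt18 (SD 0.214) and Epcam with Cldn7 (SD 0.263) were still the steadiest.

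Epcam and Krt8 did not keep step. Their ratio was 0.677, 0.249 and 0.335 in atrium-like and 0.187, 0.0171 and 0.3002 in ventricle-like parts, and 0.0102, 0.0113 and 0.0122 in E11.5H atria and 0.0150033, 0.0205 and 0.0156 in E11.5H ventricles. Ventricle-like part 2 thus had a ratio within the range of the E11.5H ventricles, although its Krt8 was at 332 FPKM and its Krt18 at 234 FPKM. The other 5 HO libraries had ratios above all 6 hearts. The ratio of Krt7 to Krt8 went the other way, with 0.801, 0.986 and 1.55 in E11.5H atria and 0.574, 0.661 and 1.02 in ventricles against 0.127, 0.0337 and 0.1197 in atrium-like and 0.335, 0.0967 and 0.261 in ventricle-like parts, with no overlap between hearts and HOs. Krt7 with Krt8, as type II keratins, summed to 0.566 to 0.855 of the type I sum of Krt18 and Krt19 in the hearts and to 0.786 to 1.26 of it in the HOs.

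**Figure D4:**
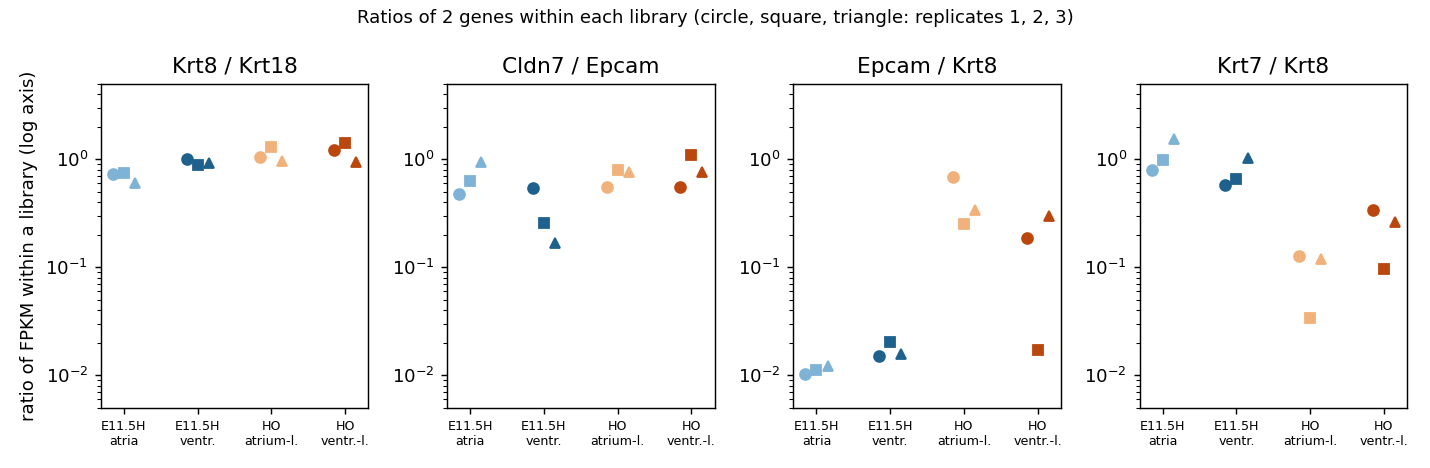
Ratio of the FPKM of 2 genes within each library (log axis), with 1 point per library in 4 groups of 3. Krt8 to Krt18 stays between 0.604 and 1.42 in all 12 libraries, whereas Epcam to Krt8 lies between 0.0102 and 0.0205 in the hearts and between 0.187 and 0.677 in 5 of the 6 HO libraries, with ventricle-like part 2 at 0.0171.

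The claudins differed in which HO library they favoured. Cldn7 made 61.97, 53.4 and 53.5% of the summed FPKM of the 4 claudins in atrium-like and 26.1, 41.3 and 43.04% in ventricle-like parts. Cldn4 held its largest share, 33.9%, in ventricle-like part 1, where it was above Cldn7. The share of Cldn6 was 3.62, 16.9 and 15.3% in atrium-like and 11.3, 4.75 and 19.9% in ventricle-like parts, so the atrium-like part with the most Epcam had the smallest share of Cldn6. In the hearts Cldn3 made 69.0% to 89.0% of a sum that was at most 1.82 FPKM.

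Of the genes, among 8490 non-members with a mean of at least 5 FPKM in the HOs, whose pattern over the 6 HO libraries lay nearest to the mean pattern of the members, 7 are given: Dsg2, Spint2, Tmem125, Dsc2, Gm13056, Eps8l2 and Tjp3. The measure was the root mean square difference of centred log2(FPKM + 0.1) values, and it ran from 0.1902 for Dsg2 to 0.293 for Tjp3. Among the members themselves Cldn3 lay nearest to the mean pattern, at 0.333, and Krt7 farthest, at 1.13. Of the 8490 non-members, 14 lay nearer to it than Cldn3 did and 655 nearer than Krt7 did. Dsg2 and Dsc2, cadherins of desmosomes that heart muscle also uses, had at most 12.99 and 19.4 FPKM in the hearts, and ranged from 1.02 to 28.8 and from 1.096 to 33.6 FPKM in the HOs. Spint2, an inhibitor of epithelial surface proteases, ranged from 19.7 to 558 FPKM in the HOs and reached 16.5 FPKM in the hearts.

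Of 22 keratins outside the members 11 were tested in the atrial comparison, where 3 rose (Krt20, Krt23 and Krt6a) and 1 fell (Krt1), and 14 in the ventricular one, where 8 rose and 0 fell. For this list and those below, 16.0% of all genes tested rose and 8.81% fell in the atrial comparison. In the ventricular one 11.6% rose and 7.35% fell. Listed genes that passed the low-count filter only through the group where they are high had to differ, and their calls support nothing. Among the other keratins this limit holds for Krt5, Krt6a, Krt13, Krt15 and Krt16, which could not be tested between the embryonic chambers. It also holds for Krt1, listed at 0 in all atrium-like parts. Genes given in brackets beside a count here and below were named after their values were seen, unless they are described further. Krt20, the keratin of gut lining, had 80.8, 11.1 and 49.1 FPKM in atrium-like and 11.03, 0.912 and 33.3 FPKM in ventricle-like parts. It rose in the atrial test (log2 difference 5.34, SE 0.84, edgeR adjusted p = 0.00713) and not in the ventricular one (2.38, edgeR adjusted p = 0.147). The interaction, which asks whether such steps differ between the chambers, called 0 of the 15 keratins of this list that it tested. Krt5, a basal keratin of layered epithelia, had 0.761, 0.0736 and 3.85 FPKM in atrium-like and 51.01, 1.07 and 25.6 FPKM in ventricle-like parts. Krt15, another basal keratin, had 1.04, 0.292 and 14.5 FPKM (atrium-like) and 61.1, 6.51 and 78.2 FPKM (ventricle-like), and Krt23 had 42.6, 4.89 and 19.5 FPKM (atrium-like) and 34.2, 1.23 and 12.96 FPKM (ventricle-like). Krt5 and Krt15 were thus highest in ventricle-like parts 1 and 3, whereas Krt20 had the same order of the 6 HO libraries as Epcam.

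Of 19 other claudins 12 were tested in the atrial comparison (3 rose, 2 fell) and 9 in the ventricular one (2 rose, 1 fell). Cldn18 was the third that rose in the atrial comparison, and those that fell were Cldn34c1 (atrial) and Cldn13 (both). Cldn2, Cldn18 and Cldn23 could not be tested between the embryonic chambers, and Cldn13 was listed at 0 in all HOs. The limit of the filter named above thus holds for their calls. Cldn2, a pore-forming claudin of leaky epithelia, had 103, 16.04 and 42.8 FPKM in atrium-like and 2.13, 0.529 and 24.8 FPKM in ventricle-like parts, and Cldn23 had 28.6, 5.24 and 20.5 FPKM (atrium-like) and 39.6, 2.10 and 27.5 FPKM (ventricle-like); both rose in both comparisons. Cldn12 had 8.804, 11.2 and 12.1 FPKM (atrium-like) and 14.7, 15.9 and 12.2 FPKM (ventricle-like), near its 6.95 to 9.77 FPKM in the hearts, and did not pass. Cldn5, the claudin of endothelium, was at 1.47 to 7.38 FPKM in the hearts and at 0 to 1.505 FPKM in the HOs, and Cldn9 stayed at or below 1.48 FPKM in all libraries; neither passed.

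Of 15 other tight junction genes 10 rose and 1 fell (Cgnl1) in the atrial comparison, and 2 rose and 1 fell (Cgnl1) of 14 tested in the ventricular one. Ocln (occludin) had 38.95, 10.2 and 32.6 FPKM in atrium-like and 4.07, 0.667 and 20.5 FPKM in ventricle-like parts, against at most 0.528 FPKM in the hearts, and the polarity gene Crb3 had 49.8, 9.12 and 47.8 FPKM (atrium-like) and 4.48, 0.597 and 27.2 FPKM (ventricle-like). Both rose in both comparisons, but Crb3 could not be tested between the embryonic chambers, so the limit of the filter holds for its calls. F11r and Lsr rose in the atrial comparison, with 102, 50.5 and 122 FPKM and 121, 38.1 and 90.7 FPKM in atrium-like parts. The scaffold Tjp1, which heart muscle also uses, had 7.75 to 14.9 FPKM in HOs and 9.90 to 16.3 FPKM in hearts and did not pass. Of 19 adherens junction and desmosome genes 3 rose in the atrial comparison (Cdh17, Pkp3 and Nectin4), and of 18 tested 4 rose (the same 3 and Evpl) and 2 fell (Cdh2 and Cdh3) in the ventricular one. The catenins Ctnnb1 and Ctnna1, shared by all cadherins, did not pass in either, whereas the gut cadherin Cdh17 had 140.1, 24.9 and 69.8 FPKM (atrium-like) and 7.896, 0.177 and 27.6 FPKM (ventricle-like) and rose in both. Cdh17 and Nectin4 could not be tested between the embryonic chambers, so the limit of the filter holds for their calls. The endothelial cadherin Cdh5 had 0.395, 4.01 and 2.16 FPKM (atrium-like) and 0.06897, 4.24 and 0.402 FPKM (ventricle-like), against 8.88 to 12.3 FPKM in the hearts, and did not pass.

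Of 14 epithelial surface and protease genes 10 rose in the atrial and 9 in the ventricular comparison and 0 fell. Spint2 rose in both (log2 difference 5.23, SE 0.67, edgeR adjusted p = 0.00437, and 3.15, SE 0.93, adjusted p = 0.04797), while Ezr and Cd24a did not pass. Of 11 tested transcription and splicing factors of epithelia 9 rose in the atrial and 7 in the ventricular comparison, and 0 fell. Only 5 of the 13 listed factors, and 7 of the 14 surface and protease genes, could be tested between the embryonic chambers. Calls of the others carry the limit of the filter named above. Elf3 had 174, 26.8 and 100.5 FPKM in atrium-like and 33.1, 7.85 and 87.9 FPKM in ventricle-like parts, Klf5 86.1, 32.9 and 59.7 FPKM (atrium-like) and 22.2, 21.7 and 52.8 FPKM (ventricle-like), and Esrp2 13.8, 2.53 and 8.43 FPKM (atrium-like) and 3.597, 0 and 14.6 FPKM (ventricle-like). Elf3 and Klf5 rose in both comparisons and Esrp2 in the atrial one. Grhl2, which activates Cdh1 and claudin genes, was at 0.358 to 4.07 FPKM in HOs and at most 0.0914 FPKM in hearts, and the splicing factor Esrp1 at 0.139 to 6.63 FPKM and at most 0.0432 FPKM; both rose in both comparisons. Ovol2 was listed at 0 in all hearts and at 0.1395 to 2.405 FPKM in HOs. Trp63, the regulator of basal layers, was at 0 to 1.19 FPKM in HOs and did not pass in the ventricular comparison, the only one of both in which it was tested.

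Of 9 genes of the mesenchymal state 0 passed in either direction in the atrial comparison (edgeR; 1 at an unadjusted p under 0.05) and 1 fell (Snai2) in the ventricular one. Vim (vimentin) had 121, 493 and 226 FPKM in atrium-like and 398, 543 and 145 FPKM in ventricle-like parts and 440.1 to 481 FPKM in hearts. Fn1 had 35.99, 158 and 57.2 FPKM (atrium-like) and 267, 155 and 41.9 FPKM (ventricle-like), and the repressor Snai1 1.598, 15.6 and 5.46 FPKM (atrium-like) and 10.9, 16.1 and 2.42 FPKM (ventricle-like), against at most 2.99 FPKM in hearts. Zeb1 had 1.699, 8.75 and 4.82 FPKM (atrium-like) and 7.29, 6.52 and 5.96 FPKM (ventricle-like) and Zeb2 1.58, 6.57 and 1.58 FPKM (atrium-like) and 5.53, 6.08 and 1.16 FPKM (ventricle-like), and none of these 5 genes passed the rule. Which library was highest differed between these genes. All 5 were nevertheless lower in atrium-like parts 1 and 3 and ventricle-like part 3 than in every other HO library. In those parts the mean pattern of the members was highest, with a mean centred log2(FPKM + 0.1) of 1.36, 1.37 and 1.11. Cldn6 was an exception, with 26.8 FPKM in atrium-like part 2 and 22.8 FPKM in atrium-like part 1. This pattern was picked after the values were seen, and its cause was not tested.

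Of 12 endoderm genes 11 rose in the atrial comparison, and 5 of 8 tested rose in the ventricular one (Apoa1, Afp, Ttr, Foxa1 and Foxa2). Only 6 of the 12 could be tested between the embryonic chambers, so the limit of the filter named above holds here too. Their summed level was 11734, 641 and 3972 FPKM in atrium-like and 269, 56.3 and 4117 FPKM in ventricle-like parts, against 45.1 to 65.5 FPKM in hearts, where 2 of the 12 were at 0 in all atria and 3 in all ventricles and none in the HOs. Most of the heart sum was Gata6, which heart cells also make and which was the 1 gene of the list that did not rise in the atrial comparison, and without it the sum was 1.41 to 4.58 FPKM in hearts and 31.4 FPKM in ventricle-like part 2. Apoa1 had 7215, 432 and 1986 FPKM (atrium-like) and 115, 1.24 and 1303 FPKM (ventricle-like), Afp 3741, 78.6 and 1453 FPKM (atrium-like) and 85.02, 1.88 and 2376 FPKM (ventricle-like), Ttr 532, 27.7 and 318 FPKM (atrium-like) and 17.9, 25.6 and 281 FPKM (ventricle-like), and Foxa2 3.94, 7.36 and 8.62 FPKM (atrium-like) and 1.48, 0.452 and 10.7 FPKM (ventricle-like). Ventricle-like part 2 had the lowest and atrium-like part 1 the highest endoderm sum, as for Epcam, Cdh1, Cldn3, Cldn7 and Krt19 but not for the other members. Most of the sum in atrium-like part 1 was Apoa1 and Afp. The mean log2(FPKM + 0.1) of the 12 genes was 5.63, 3.54 and 5.58 in atrium-like and 1.81, -0.229 and 5.26 in ventricle-like parts. Foxa2 was highest in ventricle-like part 3.

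Of 9 mesothelium and epicardium genes 1 rose (Msln) and 8 fell in the atrial comparison, and 1 rose (Msln) and 1 fell (Tbx18) in the ventricular one. Their summed level was 363 to 366 FPKM in atria and 176 to 180.3 FPKM in ventricles, 91.5, 32.98 and 66.5 FPKM in atrium-like and 221, 12.4 and 148 FPKM in ventricle-like parts, and none of the 9 was at 0 in a whole group. Upk3b had 137, 115 and 136 FPKM in atria, 74.2, 74.6 and 68.9 FPKM in ventricles, 16.96, 5.22 and 16.8 FPKM in atrium-like and 47.2, 0.135 and 19.7 FPKM in ventricle-like parts. Upk1b had 12.6 to 43.1 FPKM in hearts and 0.986 to 40.3 FPKM in HOs. Wt1, which defines epicardium, had 3.58 to 6.77 FPKM in hearts, 0.226, 2.31 and 0.586 FPKM in atrium-like and 16.6, 1.39 and 0.828 FPKM in ventricle-like parts, and Msln, a mesothelial surface protein, 38.4, 3.23 and 25.4 FPKM (atrium-like) and 39.4, 0.6499 and 88.2 FPKM (ventricle-like). In E11.5H these genes stood beside keratin members of 15.0 to 46.7 FPKM and Cdh1 of at most 0.0282 FPKM. The 4 keratins summed to 110, 102 and 101 FPKM in atria and to 114, 111 and 98.2 FPKM in ventricles. Which cells of the hearts made them was not tested.

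Of 8 genes of surface ectoderm and trophectoderm 1 of 4 tested rose in the atrial (Cdx2) and 2 of 5 in the ventricular comparison (Krt5 and Krt14). Krt5 and Krt14 are also counted among the other keratins above. Only 3 of the 8 could be tested between the embryonic chambers, Krt5 not among them, so the limit of the filter holds here too. Cdx2, which also marks gut, had 61.3, 12.3 and 26.1 FPKM (atrium-like) and 1.04, 0 and 18.6 FPKM (ventricle-like) and Krt14 0, 0.6604 and 4.41 FPKM (atrium-like) and 35.4, 4.86 and 17.4 FPKM (ventricle-like). Of 8 genes of pluripotent cells 1 of 4 tested rose in each, Tdgf1 with 1.63, 2.45 and 0.957 FPKM (atrium-like) and 10.4, 3.02 and 1.26 FPKM (ventricle-like), while Sox2 reached 3.73 FPKM in HOs and did not pass, and Dppa5a, not tested, reached 0.974 FPKM. Genes of heart muscle went the other way, with 15 of 16 lower in the atrial and 13 of 16 in the ventricular comparison; Actc1 had 83.1, 439 and 235 FPKM (atrium-like) and 1142, 710.5 and 1480.0 FPKM (ventricle-like), Tnni3, which did not pass in the ventricular comparison, 41.6, 174 and 151 FPKM (atrium-like) and 417, 218 and 615 FPKM (ventricle-like), and Tnnc1 40.4, 182 and 87.7 FPKM (atrium-like) and 238, 229.5 and 402 FPKM (ventricle-like). All 8 tested hemoglobin genes, several of them near-identical copies, fell in each comparison, and the most abundant of them in HOs, Hba-a1, Hbb-y and Hbb-bh1, reached 21.4, 2.57 and 2.29 FPKM there. How far any of these cell types set the levels of the members was not tested.

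**Figure D5:**
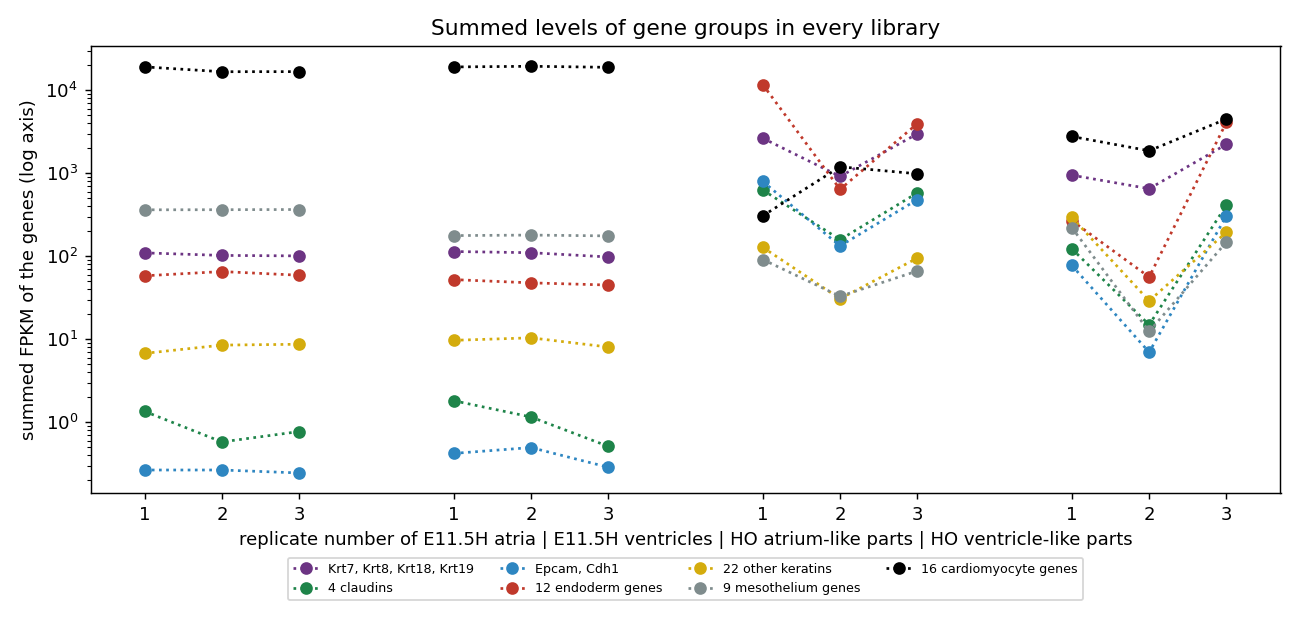
Summed FPKM (log axis) of 7 groups of genes in each of the 12 libraries, with the replicate number on the x axis; dotted lines only join the points of a group. In the HOs the sums of Epcam with Cdh1, of the 4 claudins and of the endoderm genes are lowest in ventricle-like part 2, at 6.99, 15.0 and 56.3 FPKM, where the 4 keratins still sum to 653 FPKM.

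The counts of the other lists depended on single libraries. In the ventricular comparison, leaving out any 1 E11.5H ventricle library left 3 other keratins, 0 or 1 claudins, 0 tight junction genes, 1 adherens junction or desmosome gene, 1 or 2 surface and protease genes, 3 or 4 transcription and splicing factors and 0 endoderm genes called higher. Leaving out ventricle-like part 2 instead gave 8 tight junction and 9 endoderm genes. In the atrial comparison, leaving out 1 library gave 6 to 11 tight junction genes, 1 to 6 adherens junction or desmosome genes, 2 to 5 other keratins and 6 to 10 transcription and splicing factors.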

How the data were processed

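RNA of 12 libraries was sequenced and, per the methods and the submitters' processing notes, mapped by the authors to GRCm38/mm10 with STAR. The authors deposited 1 table with an estimated count of fragments per gene and library, of which 23.8% of 314280 values were not whole, and the FPKM value made from it. The counting tool, versions and use of strand are not given in the sources used here. No per-sample column was left unused. Groups came from the labels.

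The estimated counts were rounded and tested with edgeR 4.0.16 in R 4.3.3 (TMM scaling, filterByExpr with a minimum count of 10, quasi-likelihood test, Benjamini-Hochberg adjustment over all genes tested). A call needed an adjusted p under 0.05 and a log2 fold change over 1 in size. Each comparison used its own 6 libraries, and the interaction used all 12. The methods call the HO replicates biological and do not say this of the atria and ventricles cut from E11.5H, where p-values may then rest on technical spread. They do name biological replicates for the embryonic hearts of the study's other sequencing. Ratios of pooled fragments have exact 95% Poisson intervals from scipy 1.17.1, and with 23971258 to 30540993 fragments per library 3 fragments correspond to 0.0982 to 0.125 CPM. Scripts were tested on simulated data. Alternatives were DESeq2 1.42.0, limma 3.58.1 on log2(FPKM + 1) and log2(FPKM + 0.1), other scalings, filters and fold limits, a replicate block and libraries left out.

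The members and gene lists were chosen with earlier results of these data known. All 10 members were named. From each other list the 3 genes with the highest mean HO level were named, along with 18 further genes (Cdh2, Cdh5, Vim, Zeb1, Zeb2, Grhl2, Ovol2, Esrp1, Trp63, Foxa2, Wt1, Upk3b, Krt5, Krt20, Cldn5, Cldn9, Ocln and Tjp1), and 7 of the 8 genes most alike in pattern; the other is not reported here. Overlaps with other genes came from GENCODE M21 and promoters from RefSeq, GRCm38.p6.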

Additional observations from a re-analysis of the deposited data

How the results depend on the processing

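Against the hearts, all 10 members kept a positive log2 difference under every alternative. The number called in the ventricular comparison ranged from 2 to 10 with 1 library left out, the 2 arising without each E11.5H ventricle library; it was 8 and 9 with limma at pseudocounts of 1 and 0.1 FPKM and 7 with the replicate block. Between the HO parts, scaling to the heart muscle genes gave 7 called members, and between the embryonic chambers it gave 1 (Krt7), as did dropping the fold limit (1, Krt19). That scaling moved the median of all genes by 3.82 (atrial), 2.91 (ventricular), 1.55 (HO parts), 0.62 (embryonic chambers) and 0.93 (interaction). The cause of these changes was not tested. For Krt7 between the HO parts the log2 difference turned to -0.42 and -0.44 with limma (pseudocounts 1 and 0.1), -0.018 with no low-count filter, -0.26 with the replicate block and -0.014 with all 12 libraries in 1 fit, and ranged from -0.419 to 0.7485 with 1 library left out; for Cldn6 it ranged from -0.20 to 2.80. Krt8 between the embryonic chambers turned to 0.48 with scaling to heart muscle. In the interaction Cldn6 turned to 1.53 and 1.585 with limma and 0.32 with that scaling, and Krt7 to 1.13 with it. With 1 library left out the interaction ranged from -4.15 to 3.36 for Cldn6, -0.89 to 0.31 for Krt7 and -0.47 to 2.63 for Cdh1. Of the other values of single genes, 720 kept direction and call, 33 lost the call and 13 gained it.

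Over all genes, the atrial comparison called 3821, 14173 with scaling to heart muscle and 1662 to 1726 without an atrium library. The ventricular one called 2859, 13730 with that scaling, 4462 with no fold limit and 1116 to 1212 without a ventricle library. Between HO parts the calls were 0, 56 with DESeq2 and 1423 with that scaling. Between the embryonic chambers they were 712, 386 with limma (pseudocount 1), 2140 with that scaling, 1982 with no fold limit and 30 with all 12 libraries. The interaction called 25, 444 with DESeq2, 89 and 45 with limma, 11 with that scaling, 5 with the replicate block and 2 to 216 with 1 library left out.

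Same-numbered libraries of both HO parts had correlations of their deviations of 0.0174, 0.589 and 0.36, and in the other comparisons between -0.0212 and 0.0708. Different-numbered HO parts ran from -0.671 to 0.436, so these values do not settle whether the numbers pair the HO parts. The main tests did not pair libraries, and the replicate block was an alternative. Few embryonic fragments limit the ratios of Cdh1, Cldn4 and Cldn6.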
